A study of Drosophila melanogaster with 4 samples.

Results

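Atonal peaks on chromosome arm 3R are the regions of the right arm of the third chromosome at which GFP-tagged Atonal was called in the brain of Drosophila melanogaster larvae. They were chosen by position alone, as every peak on the arm sequence 3R, with the separately assembled sequence 3RHet left out. This gave 335 of the 3280 peaks of the series, or 10.2%. All 4 libraries came from brains of L3 larvae, the last larval stage, of the ato:GFP knock-in line (IMAGO), untreated and raised at 25 °C. The 2 immunoprecipitated (IP) libraries were made with anti-GFP, and the 2 input libraries from chromatin that was not precipitated, for which 10% of the sonicated volume of 400 brains was set aside. Both kinds of library carry the tagged allele, and none of the 4 comes from brains without the tag. A knock-in places the tag at the gene itself, so the fusion is driven by the control sequences of ato. The study deposited a single list of peaks made from these libraries. A value per library, and with it a spread between replicates, a read depth or an enrichment over input, was not analysed here.

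Atonal is a proneural transcription factor of the basic helix-loop-helix class. Such factors bind as dimers, together with the partner Daughterless, to short DNA motifs called E-boxes, and they switch on genes that turn undifferentiated cells into neural precursors. Atonal is known for founding the R8 photoreceptor and the chordotonal stretch receptors, and in the brain for the dorsal cluster neurons and for progenitors of the optic lobe. Its own gene, ato, lies on 3R in band 84F. In the release 6 gene table its nearest protein-coding neighbours on the arm are CG9630 on one side and Nazo on the other. The names of the sequences in the list belong to release 5 of the genome, for which no annotation was used here. Which 3R peaks lie at the tagged locus, and which genes lie under any other peak, was therefore not analysed here. Peaks around the tagged locus may reflect the knock-in as well as binding. This was not tested for any peak, run or stretch named below. Peaks are given below by their release 5 position, counted from 1.

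The 335 peaks were short and of moderate score. The median width was 102 bp (quartiles 85 and 135.5 bp), the narrowest peak had 71 bp and the widest 1737 bp. The peaks covered 43.0 kb of the 27.8 Mb between the start of the sequence and the end of the last peak. Of the 335, 165 were narrower than 100 bp (49.3%, 95% Wilson interval 43.9 to 54.6%) and 4 were 500 bp or wider. Each peak carries a whole-number score given by the authors, on a scale that the sources used here do not state, and higher scores are read here only as higher ranks within the list. The median score on 3R was 23 (95% interval from the order of the values, 23 to 25), with quartiles of 18 and 31. The lowest score, 13, belonged to 18 peaks, and 128 peaks scored above 25, the median of the whole list. High scores were few: 19 peaks (5.67%) scored above 50 and 6 (1.79%) above 100. Intervals here and below cover counting error only, and they are too narrow where peaks lie in groups.

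The peak with the highest score of the whole series lay on this arm. It covered chr3R:18309429-18309582, scored 530 and was 154 bp wide. Nothing else lay near it, since the gap to the next peak was 136949 bp on the centromere side and 133486 bp on the other. The peaks at the far ends of those gaps both scored 15. The 15 highest scores on 3R ran from this value down to 58, and the fall at the top was steep, from 530 to 211, 201, 153 and 119. Of the 15, 12 started in the first 10 Mb of the arm sequence, which held 167 of all 335 peaks, and none lay in the first 2 Mb. Outside the first 10 Mb, the high peaks besides the top one were chr3R:21422255-21422363 with a score of 69 and chr3R:23870946-23871156 with a score of 58. Within the first 10 Mb, 2 of the 15 lay apart from the stretches described below and from the runs of 3 peaks, chr3R:6634876-6635019 with a score of 63 and chr3R:5130760-5130852 with a score of 58. The second of these had a wide neighbour of score 28 after a gap of 93 bp, chr3R:5130946-5131326.

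High peaks on 3R varied in width. Some were narrower than the median of the arm, such as chr3R:8293394-8293468 (score 211, 75 bp) and chr3R:3521463-3521542 (score 201, 80 bp). Others were wide. The widest, chr3R:4102323-4104059, had a width of 1737 bp and a score of 153. The next among the top 15 were chr3R:3528082-3528768 with a width of 687 bp and a score of 84, and chr3R:3527011-3527579 with a width of 569 bp and a score of 73. Of the 15 highest peaks, 5 were narrower than the median width of 102 bp, 3 were among the 10 widest and 7, the top peak among them, lay between. The 3 wide ones scored 153, 84 and 73 and the 5 narrow ones 211, 201, 97, 64 and 58, so the scores of these groups overlapped.

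**Figure D1:**
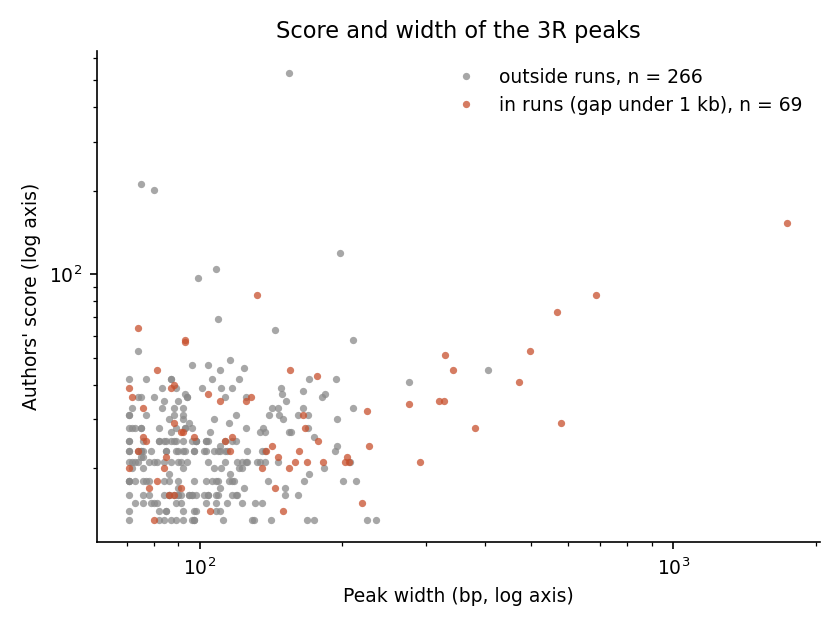
Each point is 1 of the 335 peaks on 3R, with its width in bp on the x axis and the authors' score on the y axis, both on log axes. Peaks in runs (neighbours less than 1 kb apart, n = 69) are orange and the other 266 grey. The highest scores, 530, 211 and 201, sit at widths of 154, 75 and 80 bp, and the widest peak, 1737 bp, scores 153.

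Scores above 25 were nonetheless more frequent among the wide peaks as a class. The 165 peaks narrower than 100 bp had a median score of 23, and so did the 142 peaks from 100 to 199 bp. The 28 peaks of 200 bp or more had a median of 32.5, although the interval of that median was broad (21 to 41) and included 23. Scores above 25 made up 33.9% of the narrowest class (Wilson interval 27.2 to 41.5%), 38.7% of the middle class (31.1 to 46.9%) and 60.7% of the widest class (42.4 to 76.4%). The interval of the widest class overlapped that of the middle class but not that of the narrowest. The 10 widest peaks, from 329 to 1737 bp, all scored above 25, and 9 of these 10 lay in runs with other peaks less than 1 kb away. The third widest, chr3R:1168544-1169122 with 579 bp, had a score of only 29. Across the 335 peaks, which share their libraries and their caller, Spearman's rho of score and width was 0.14 and Pearson's r was 0.23. Without the 10 widest peaks rho was 0.07, so part of this weak relation rested on them.

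The peaks that lay close together formed small groups. A run is taken here as 2 or more peaks with gaps under 1 kb. There were 23 runs holding 69 peaks, or 20.6% of the arm's peaks (Wilson interval 16.6 to 25.2%). Of these runs, 12 were pairs, 3 had 3 peaks, 5 had 4, 2 had 5 and 1 had 6. Whether a run holds separate sites or 1 broader region called in pieces was not tested. Peaks in runs were wider, with a median width of 135 bp against 97 bp outside runs. Of the peaks in runs, 53.6% scored above 25 (Wilson interval 42.0 to 64.9%), against 34.2% outside (28.8 to 40.1%). Medians of score were 26 and 23. Among peaks in runs 1 carried the lowest score, against 17 of the 266 outside.

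The largest runs were not those with the highest scores. The run of 6 peaks, chr3R:2242590-2244668, had a median score of 21.5 and a highest score of 33, and its peaks covered 44.1% of the 2079 bp. The runs of 5 peaks were chr3R:6783720-6786068, with a median score of 32 and a highest of 45, and chr3R:23617656-23620421, with a median of 21 and a highest of 23. Shorter runs varied. The pair chr3R:24846139-24846426 had scores of 20 and 16 only, whereas some others held higher scores than the largest runs. The 3 peaks of chr3R:3929204-3930524 scored 64, 28 and 57, and those of chr3R:9222692-9223828 scored 84, 45 and 40. A run of 4 near the telomere end, chr3R:26900036-26901991, had scores of 41, 45, 31 and 53 and widths of 473, 343, 165 and 498 bp. Its peaks covered 75.6% of the run, with gaps of 92 to 249 bp. A further wide peak of score 45, chr3R:26907079-26907484, lay nearby.

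Of the 15 highest peaks, 9 fell into 2 stretches of the arm, whose limits were drawn around high peaks after the positions had been seen. The first, between 3.5 and 4.2 Mb, held 5 of them among its 22 peaks. Here the narrow peak of score 201 was followed, after a gap of 2802 bp, by a peak of score 15, and then by the pair of wide peaks with scores of 73 and 84, which were 502 bp apart. Further along the arm came the run of 3 peaks with scores of 64, 28 and 57. The run that holds the widest peak of the arm, chr3R:4102323-4105226, lay further on. Its first peak scored 153, and the 3 peaks after it scored 26, 34 and 25 with widths of 97, 276 and 77 bp. Peaks covered 75.3% of these 2904 bp. The gap before the run was 68808 bp. The peaks on either side of the run scored 18 and 16, at and below the lower quartile of the arm.

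The second stretch, between 8.2 and 8.4 Mb, held 4 of the 15 among its 12 peaks. Its first 3 peaks scored 25, 21 and 20, and the narrow peak of score 211 at chr3R:8293394-8293468 followed after a gap of 63695 bp. The 100 kb window that follows, from 8300001 to 8400000, was the fullest of the arm, with 8 peaks. Their scores, in order along the arm, were 28, 41, 39, 53, 97, 119, 104 and 23. None of the 8 lay in a run, since the smallest gap between them was 1164 bp. The 3 highest of them were evenly spaced. They started at 8328212, 8331498 and 8334775, which are 3286 and 3277 bp apart, and had widths of 99, 198 and 108 bp. This spacing was noticed after the positions had been seen. On 3R, 16 sets of 3 consecutive peaks had both start distances between 1 and 10 kb, and in this 1 set (6.25%) the distances differed by less than 1%. On all other sequences of the list 10 of 502 such sets (1.99%) did so. Whether the sequence under these 3 peaks is repeated was not analysed here.

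**Figure D2:**
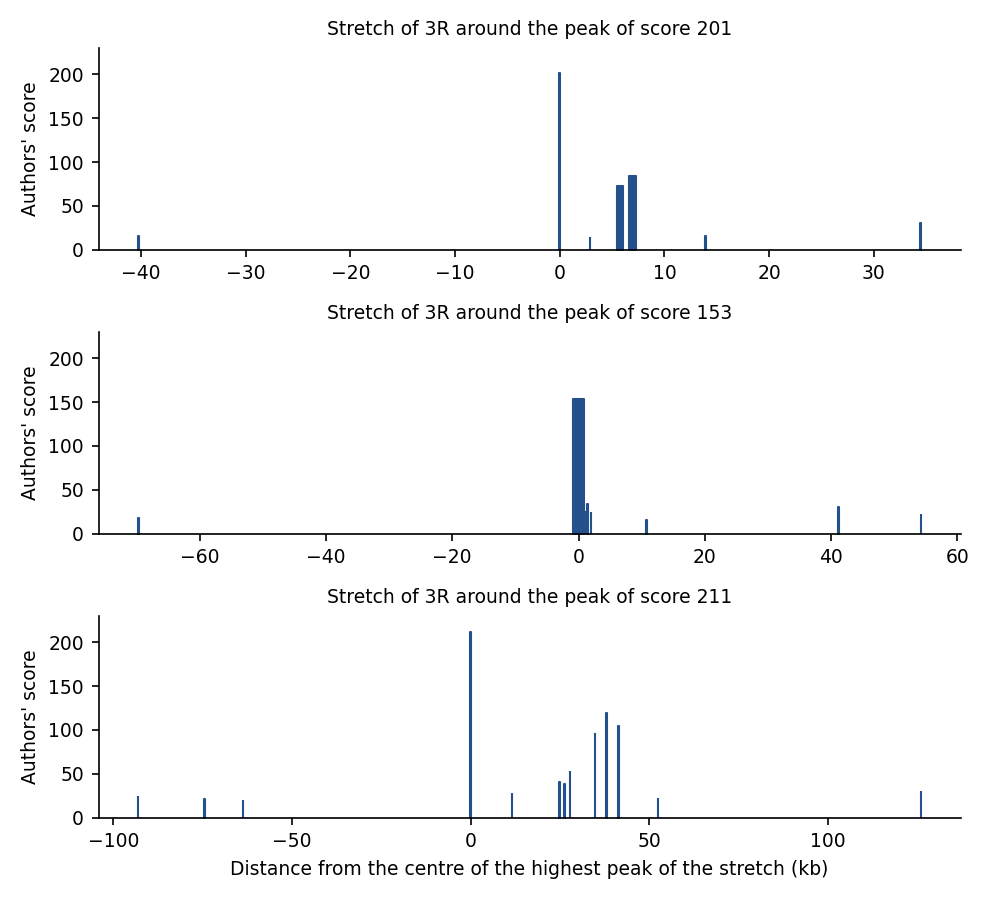
Peaks in 3 stretches of 3R, with the distance in kb from the centre of the highest peak of the stretch on the x axis and the authors' score on the y axis. Each block is 1 peak, drawn from its start to its end with an outline that thickens the narrow ones. The upper panel shows the narrow peak of score 201 and the wide pair of 84 and 73, the middle panel the peak of 1737 bp and the peaks beside it, and the lower panel the peak of 211 and the evenly spaced peaks of 97, 119 and 104.

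Along the arm sequence, peaks were most frequent not at its centromere end but a little way from it. The counts below leave out 3RHet, which held 395 peaks, so they describe the arm sequence only. The low end of the coordinates of 3R is the centromere end. The first 2 Mb held 23 peaks, or 11.5 per Mb (exact Poisson interval 7.29 to 17.3), and the next 2 Mb 58 peaks, or 29.0 per Mb (22.02 to 37.5). From 4 Mb to 2 Mb before the end of the last peak there were 236 peaks, or 10.8 per Mb (9.49 to 12.3). The last 2 Mb, at the telomere end, held 18 peaks, or 9.0 per Mb (5.33 to 14.2). The stretch from 2 to 4 Mb thus carried 2.70 times the density of the rest of the arm (exact interval 2.00 to 3.60). It was picked out with the positions already known, so this ratio is a description with no test.

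By median score and by the share of scores above 25, the part from 2 to 4 Mb was close to the middle part. Of the 15 highest peaks of the arm, however, 4 started in the first 4 Mb, all of them beyond the first 2 Mb. They were thus among the 58 peaks from 2 to 4 Mb, out of 335 on the arm. The median score was 23 in the first 2 Mb, 23 from 2 to 4 Mb and 23 in the long middle part, and 25 in the last 2 Mb. Scores above 25 made up 39.7% of the 58 peaks from 2 to 4 Mb (Wilson interval 28.1 to 52.5%) and 37.3% of the 236 in the middle part (31.4 to 43.6%). The share of peaks in runs was 24.1% from 2 to 4 Mb (14.96 to 36.5%) and 18.2% in the middle part (13.8 to 23.6%), with intervals that overlap. In the first 2 Mb 8 of 23 peaks were in runs.

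**Figure D3:**
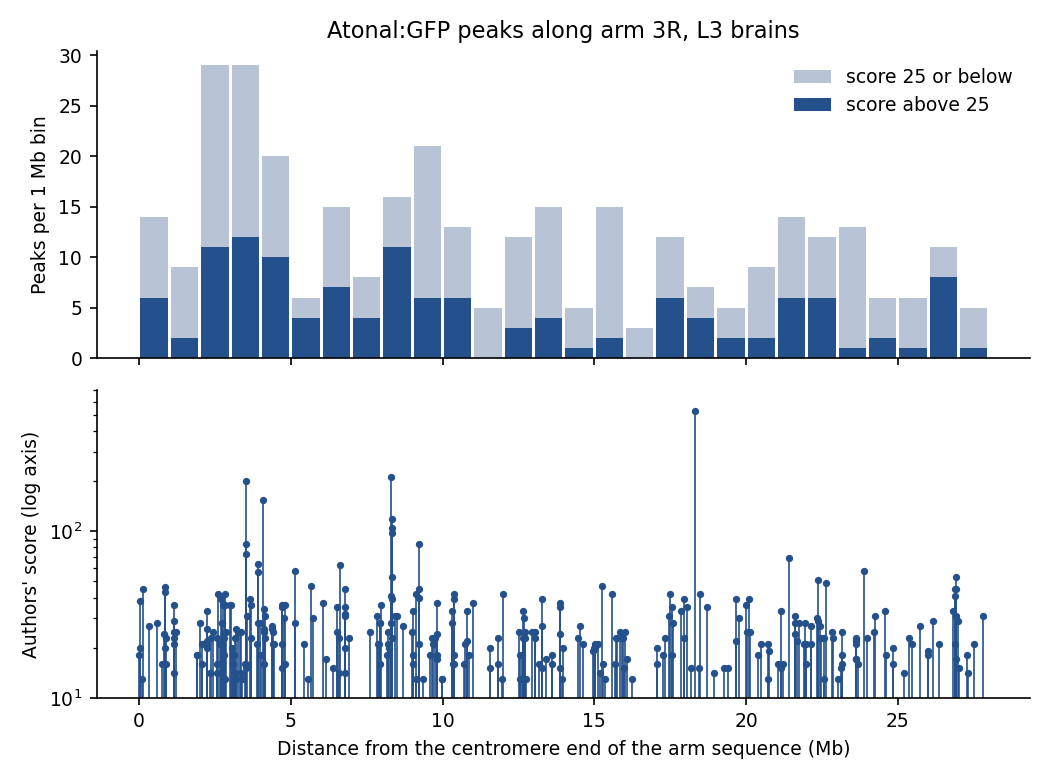
The upper panel gives the number of 3R peaks in each 1 Mb bin, with peaks of score above 25 in dark blue within each bar, against the distance in Mb from the centromere end of the arm sequence. The last bin is incomplete. The lower panel gives each peak's score on a log axis at the same distance. The bins from 2 to 4 Mb hold 29 peaks each, and the highest score, 530, stands alone past 18 Mb.

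In bins of 1 Mb, the 27 complete bins held a median of 12 peaks, with a range from 3 to 29. Only 4 complete bins had 20 or more, those from 2 to 3, 3 to 4, 4 to 5 and 9 to 10 Mb, and these held 99 peaks, or 29.6% of the arm. The emptiest was that from 16 to 17 Mb, with 3 peaks, none of which scored above 25. The bin from 11 to 12 Mb also had no score above 25 among its 5 peaks. At the other end of the range, 11 of 16 peaks scored above 25 in the bin from 8 to 9 Mb, and 8 of 11 in that from 26 to 27 Mb.

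Taken in stretches of 7 Mb, density was highest in the first, which includes the 58 peaks from 2 to 4 Mb, and lowest in the third. The first stretch held 122 peaks (17.4 per Mb, Poisson interval 14.5 to 20.8), the second 90 (12.9 per Mb, 10.3 to 15.8), the third 56 (8.0 per Mb, 6.04 to 10.4) and the incomplete last one 67 (9.85 per Mb, 7.64 to 12.5). Runs followed the same order only in part, with 41, 13, 2 and 13 peaks in runs. The third stretch, from 14 to 21 Mb, held the lowest share of scores above 25, 30.4% (Wilson interval 19.9 to 43.3%) against 42.6% in the first (34.2 to 51.5%), and also the single highest score. These shares have overlapping intervals.

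The distance between neighbouring peaks varied widely. The 334 gaps ranged from 83 bp to 803 kb, with a median of 34.2 kb and quartiles of 6.37 and 117.6 kb. Of these, 46 were under 1 kb, 51 from 1 to 10 kb, 146 from 10 to 100 kb and 91 were 100 kb or more. Of the 277 complete windows of 100 kb, 123 (44.4%) held no peak and 15 held 5 or more. The longest gaps were 803017 bp from 16253988 to 17057004, 706424 bp from 6919975 to 7626398 and 675623 bp from 1230108 to 1905730. Whether reads could be aligned throughout these gaps was not analysed here. A group of 6 peaks had no other peak within 200 kb. Their scores were 25, 27, 35, 14, 27 and 31, of which 4 were above 25, beside 128 of all 335 peaks of the arm (38.2%). The last of them, chr3R:27799730-27799876, was also the peak nearest the telomere, so it had a neighbour on the centromere side only. At the opposite end of the arm the first peak, chr3R:7852-7969, scored 18.

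Set beside the other long arms, 3R had a low density as a whole and an ordinary one outside the centromere end. The values are given side by side with counting intervals and no test, because the list holds 1 value per peak and no replicate. They cover the arm sequences only. The separately assembled Het sequences, among them 3RHet with 395 peaks, are not counted with any arm. Over the whole sequence 3R had 12.05 peaks per Mb (10.8 to 13.4), 2L 17.0 (15.3 to 18.7), 2R 19.2 (17.3 to 21.2), 3L 20.2 (18.5 to 22.05) and X 11.3 (9.94 to 12.8). With the 4 Mb at the centromere end of each arm left out, 3R had 10.7 (9.40 to 12.1), between 2R with 10.4 (8.90 to 12.1) and 3L with 11.4 (9.99 to 12.97), and 2L had 10.3 (8.93 to 11.9). X had 7.44 (6.25 to 8.80). On these parts, then, the intervals of the 4 autosomal arms overlapped.

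Spacing behaved in the same way. The share of peaks in runs on the whole of 3R, 20.6%, was below 28.2% on 2L (Wilson interval 24.0 to 32.9%), 33.3% on 3L (29.3 to 37.6%), 35.6% on 2R (31.0 to 40.4%) and 57.7% on X (51.5 to 63.6%). The intervals of 3R and 2L overlapped. The largest run had 6 peaks on 3R and 12 to 21 on the others, whereas without the 4 Mb at the centromere end it had 5 on 3R, 4 on 2L, 4 on 2R, 7 on 3L and 21 on X. On those parts the share of peaks in runs was 18.5% on 3R (14.2 to 23.7%), 16.8% on 2L (12.2 to 22.7%), 17.9% on 3L (13.6 to 23.4%) and 15.03% on 2R (10.5 to 21.1%). X stayed at 51.8% (43.5 to 60.03%). The median gap was 34.2 kb on the whole of 3R against 9.05 kb on 2L, 9.26 kb on 3L, 10.6 kb on 2R and 1.78 kb on X. Without the 4 Mb it was 42.5 kb on 3R, 48.1 kb on 2L, 40.6 kb on 3L, 59.0 kb on 2R and 2.83 kb on X.

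**Figure D4:**
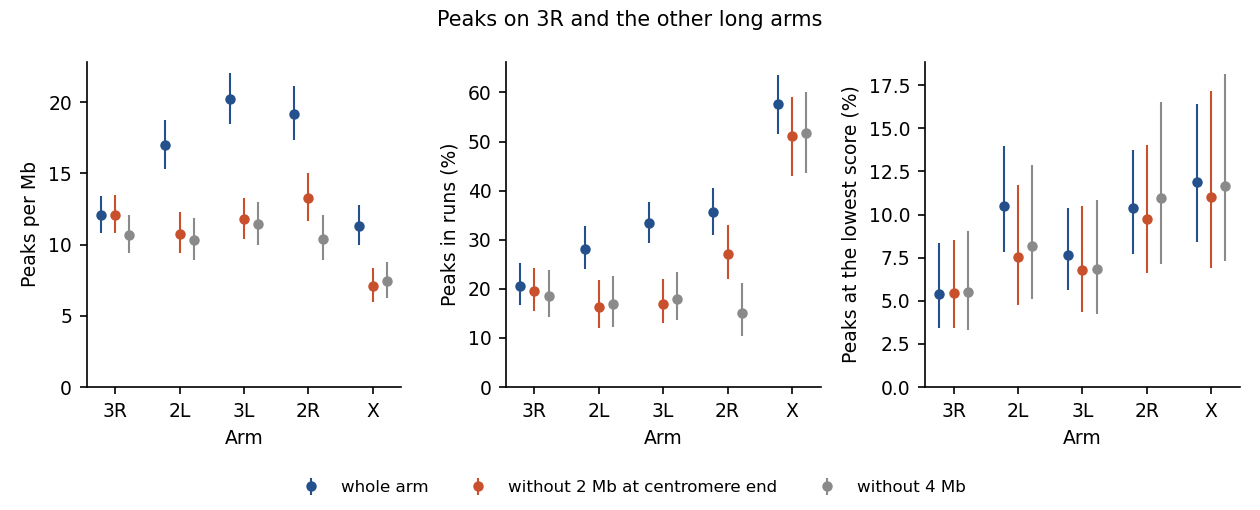
Peaks per Mb, the percentage of peaks in runs and the percentage of peaks at the lowest score on 3R and the other long arms. Points are values and bars are 95% intervals from counting (Poisson for density, Wilson for percentages), for the whole arm (blue), without 2 Mb (orange) and without 4 Mb (grey) at the centromere end. Density on 3R, 12.05 per Mb, is below 2L, 3L and 2R on the whole arm and level with them without 4 Mb, where it is 10.7.

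Over the whole arms, median scores differed little, and the shares of high and low scores differed more. The median was 23 on 3R, 2L, 3L and X and 24.5 on 2R. Scores above 25 made up 38.2% of 3R (Wilson interval 33.2 to 43.5%) and 37.2% of 2L (32.5 to 42.1%). They made up 42.0% of 3L (37.75 to 46.4%), 44.95% of 2R (40.1 to 49.9%) and 47.0% of X (41.0 to 53.2%). For these shares the interval of 3R overlapped those of all 4 other arms. Without the 4 Mb at the centromere end they were 38.2% on 3R, 36.2% on 2L, 38.5% on 3L, 37.0% on 2R and 45.3% on X. Peaks at the lowest score of 13 made up 5.37% of 3R (3.42 to 8.33%), against 7.68% on 3L (5.64 to 10.4%), 10.4% on 2R (7.72 to 13.7%), 10.5% on 2L (7.84 to 13.9%) and 11.9% on X (8.43 to 16.4%). The value on 3R was the lowest of the 5 also without the 4 Mb at the centromere end, at 5.51% (3.31 to 9.04%), where the next was 3L with 6.84% (4.25 to 10.8%). The interval of 3R overlapped those of all 4 other arms on these parts, and on the whole arms it overlapped all but that of X. At the top of the ranking, 3R held 4 of the 10 highest peaks of the long arms and 81 of the highest 505 (16.0%), beside its 17.9% of all 1869 long-arm peaks. In the ranking of the whole list, which includes the Het sequences, it held 3 of the highest 10, 9 of the highest 100 and 28 of the highest 503 (5.57%), beside its 10.2% of all peaks. Widths were close to those of the other autosomal arms, with a median of 102 bp on 3R and 107 to 110 bp on 2L, 2R and 3L. On X the median was 127 bp.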

How the data were processed

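Per the submitters' processing notes, Bowtie2 2.2.1 placed the reads of the 2 IP and 2 input libraries. How peaks were called (tool, cutoff, role of the input, build, pooling) is, in the sources used here, not given. In the headerless list that the authors deposited, each peak has a whole-number score of unstated scale. No column holds values of a single library, so depth is unknown and no result has a replicate error. Whether the replicates came from separate dissections is not stated in the labels.

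Starts were converted to count from 1, and an arm was measured up to its last peak. Peaks were binned by start, and runs were made from gaps under 1 kb. Shares have 95% Wilson intervals, counts exact Poisson intervals, the ratio of densities an exact binomial interval, and medians an interval from the order statistics. No p-value was computed. Functions were tested on simulated data. Python 3.11.15, numpy 2.4.6, scipy 1.17.1, pandas 2.3.3 and matplotlib 3.10.9 were used.

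The arm and the descriptions were chosen with earlier results of these data known. Peaks named by rule were the 15 highest scores, the 10 widest, runs of 5 or more, peaks at the ends of the arm, those over 200 kb from any other and those of the fullest 100 kb window. The runs of 3 and 4 peaks named, and the evenly spaced set, were chosen after their values were seen. Genes, E-boxes and sequences under peaks were planned but not run, since the gene table is of release 6 and coordinates were not converted.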

Additional observations from a re-analysis of the deposited data

How the results depend on the processing

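No paired analysis was possible because the list has no column for a replicate, and for the same reason no replicate could be left out. Of 32 alternative values computed, 22 stayed within the interval of the value reported (for counts, within 1.5 times) and 10 moved. Of the 20 alternatives for the main results 11 stayed and 9 moved, and of the 12 others 11 stayed and 1 moved. Among scores above 25 alone, density on 3R was 4.60 peaks per Mb (128 peaks), the median score 35, the median width 109.5 bp and the median score from 2 to 4 Mb 36; density and both medians of score move there by the construction of that list. Joining peaks under 1 kb apart gave 10.4 per Mb (289 peaks) and under 10 kb 8.56 per Mb (238 peaks), which can only lower the count. Without the 4 Mb at the centromere end density was 10.7 per Mb. The share of peaks in runs was 15.5% with a gap under 500 bp and 34.9% under 5 kb, which follows from the wider limit. The ratio of density from 2 to 4 Mb to the rest of the arm was 2.83 among scores above 25. It was 2.57 with peaks under 1 kb apart joined. For the zones from 2 to 3 Mb and from 3 to 4 Mb, each set against all the rest of the arm, the ratio was 2.54. Alternatives that left out the centromere end for runs and lowest scores, and those for the relation of score and width, were chosen after seeing the data. Without peaks in runs Spearman's rho was 0.09.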
